A study of Mus musculus with 48 samples.

Results

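Residual editing was compared between brain and 7 other tissues in the 24 E861A libraries of a series of 48, that is, in the A-to-I editing that remained where ADAR1 cannot deaminate. E861A mice were Adar1E861A/E861A Ifih1-/- and the WT mice, whose 24 libraries serve here only for context, were Adar1+/+ Ifih1-/-, so that both groups lacked Ifih1, the gene for the dsRNA sensor MDA5. All were 12-week-old male C57BL/6 mice, and brain, liver, kidney, heart, bone marrow (BM), small intestine, thymus and spleen were sampled 3 times per genotype. The E861A allele is a germline point mutation, carried by every cell, that leaves an ADAR1 protein without deaminase activity, and whole tissues (haematopoietic cells for BM) were taken, so that cell types within them were not separated. Levels came from mmPCR-seq, in which a panel of primers amplifies selected transcripts before sequencing, and the editing level of a site is its edited reads over all its reads.

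A site entered a comparison if it had over 100 reads in at least 2 of the 3 E861A libraries of brain and of the other tissue, and a pooled level above 1% in either. Of 48715 listed positions, 7262 had over 100 reads in at least 1 E861A library, and 707 to 835 sites entered each of the 7 comparisons. The sites closest to the 1% limit had pooled levels of 1.0002% inside it and 0.99707% outside it. The calls below come from limma, with p-values adjusted by Benjamini-Hochberg over all sites of a comparison and a threshold of 0.05.

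ADARs bind double-stranded RNA and convert adenosine to inosine, which is read as guanosine. ADAR1 and ADAR2 are the catalytically active members of the family, and ADAR2 (encoded by Adarb1) is best known for recoding transcripts of neuronal receptors and channels, above all the glutamine to arginine change in the AMPA receptor subunit Gria2. Sites in 3′ UTRs and introns usually lie in inverted repeats and carry many editable adenosines close together.

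The sites on which the results turn are shown as 21 bases of mm9 on the strand of the transcript, 5′ to 3′, with the edited adenosine in capitals. The AMPA receptor subunits, the GABA receptor subunit Gabra3, the potassium channel Kcna1, the channel protein Tmem63b, the cytoskeletal regulator Cyfip2 and the actin crosslinker Flna are shown because they are recoded by single adenosines.
Gria2 Gln to Arg, chr3:80510824-80510844, minus strand: gcctttatgcAgcaaggatgc
Gria3 Arg to Gly, chrX:39007419-39007439, plus strand: ctcagcattaAggtgggtgga
Gria4 Arg to Gly, chr9:4455996-4456016, minus strand: ttcctcattaAggtgggtgga
Gabra3 Ile to Met, chrX:69690621-69690641, minus strand: actggttcatAgccgtctgtt
Kcna1 Ile to Val, chr6:126592166-126592186, minus strand: tgtgctgacaAttgccctgcc
Tmem63b Gln to Arg, chr17:45799888-45799908, minus strand: tacgagttccAgtttggcgca
Cyfip2 Lys to Glu, chr11:46086135-46086155, minus strand: cagatacattAagaccagtgc
Flna Gln to Arg, chrX:71472191-71472211, minus strand: tctagtcttcAggtgaggcac
The windows of Gria3 and Gria4 shared 18 of 21 bases. The Golgi transport genes Cog3 and Copa are shown as sites with higher levels in liver than in brain, Adarb1 as the transcript of ADAR2 itself, Bri3bp and Cds2 as 3′ UTR sites, and Iqgap1 and uc012aji.1 as sites at one level in every tissue.
Cog3 Ile to Val, chr14:76119516-76119536, minus strand: cattaaggaaAtttccctgga
Copa Ile to Val, chr1:174022469-174022489, plus strand: cgtttgggatAtttctggtga
Adarb1 intron, chr10:76786795-76786815, minus strand: ggaggatgttAtaaatgaaaa
Adarb1 intron, chr10:76786819-76786839, minus strand: ggagtaacctAccggtctttt
Bri3bp 3′ UTR, chr5:125937837-125937857, plus strand: tctctgtgtaAaccaggctgc
Cds2 3′ UTR, chr2:132135606-132135626, plus strand: gtaagcatttAgcaaggtgcc
Iqgap1 3′ UTR, chr7:87857164-87857184, minus strand: aagaaaaaggAaaaaaaaaag
uc012aji.1 ncRNA, chr17:6123037-6123057, plus strand: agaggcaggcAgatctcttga
A G preceded the edited adenosine in 1 of these 16 windows, a T in 6, and a G followed it in 8.

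The summed coverage of the 24 libraries lay between 4878116 and 11394093 reads, and 4518 to 6746 positions per library had over 100 reads. The median level of those positions was at most 0.172% in every library, which is the background against which residual editing is read. All 10 neuronal transcripts chosen to check the brain label (among them Gria2, Gria4, Grik1, Grik2, Htr2c and Cadps) had a position over 100 reads in each E861A brain library, against 1 to 7 of the 10 in libraries of the other tissues. The panel gave no usable marker of the other tissues, so their labels were not checked. BM libraries 2 and 3 and small intestine library 1 stood apart, since 124 of 269, 101 of 246 and 122 of 257 coding positions covered in the other libraries of their tissue were not covered in them, so that recoding sites there often rest on 2 libraries. Reads were copied by PCR without molecular identifiers, so counts of reads overstate the number of RNA molecules.

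Brain kept far more editing than any other E861A tissue. The pooled level was above 1% at 805 of 5543 covered sites in brain, or 14.5% (Wilson 95% interval 13.6% to 15.5%, for the counting of sites only). Liver came next with 276 of 5211 sites (5.30%), then kidney with 3.42% of 5175, heart with 2.25% of 6545, BM with 2.22% of 6535, small intestine with 1.92% of 5685, thymus with 1.18% of 6698 and spleen with 1.16% of 6649. These amounts are for whole tissues, in which fewer cells that edit and less editing per cell cannot be told apart.

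The contrast was sharper for sites above 1% in every covered library, of which brain had 324, in 137 named genes. Liver had 68, kidney 44 and each of the other 5 tissues 10 to 15. Levels above 50% were found at 55 sites in brain, 9 in liver, 2 each in kidney and heart, and at no site in BM, spleen, thymus or small intestine.

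**Figure D1:**
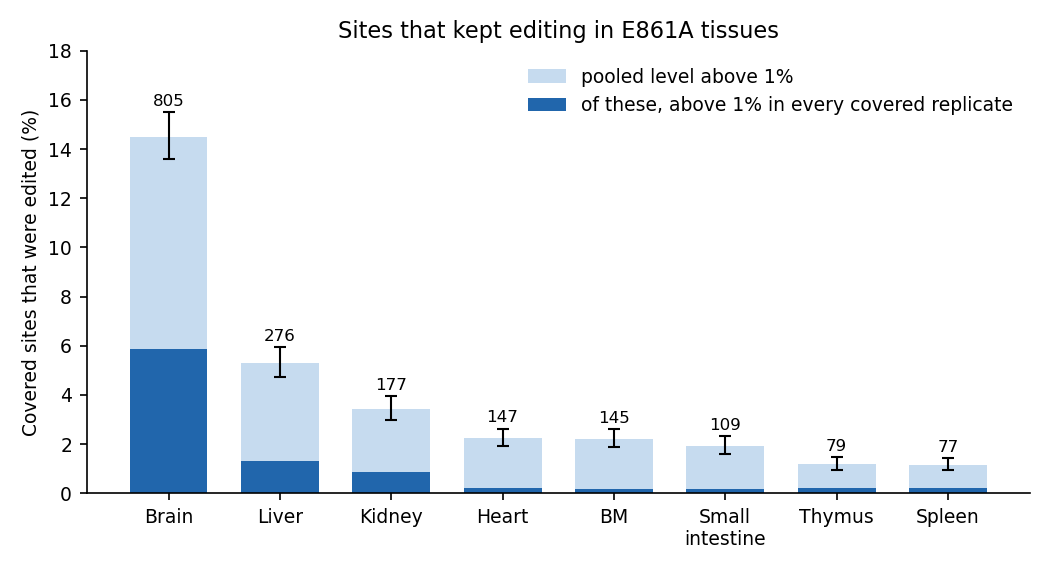
Percentage of covered sites whose pooled E861A level was above 1% (whole bars, with Wilson 95% intervals and the number of sites above them) and above 1% in every covered library (dark part), by tissue. Brain stands at 14.5% and every other tissue at or below 5.30%.

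At 481 sites covered in all 24 libraries and above 1% in at least 1 tissue, the 3 brain libraries had mean levels of 8.64%, 7.51% and 6.96%. Liver libraries had 1.74%, 1.68% and 1.81%, and kidney libraries 0.945%, 0.982% and 1.06%. The sites were admitted by their level, and brain had the most sites above 1%, so the choice can favour brain and the order is a description. Means were 7.70% ± 0.859 in brain, 1.74% ± 0.0629 in liver, 0.994% ± 0.0562 in kidney, 0.787% ± 0.172 in heart, 0.645% ± 0.262 in BM, 0.540% ± 0.157 in small intestine, 0.395% ± 0.0390 in thymus and 0.367% ± 0.0620 in spleen (SD, n = 3 each).

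**Figure D2:**
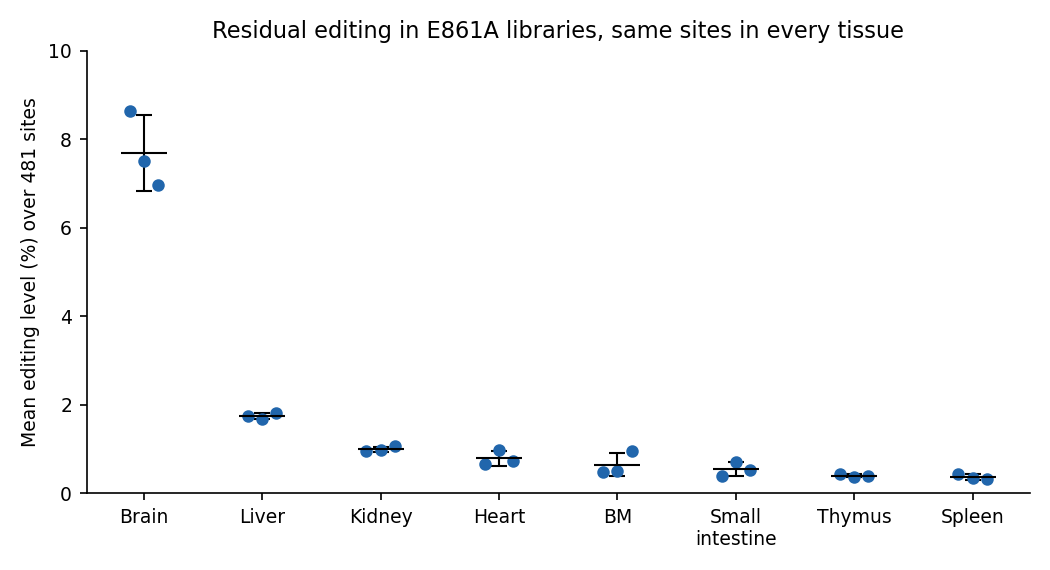
Mean editing level over the same 481 sites in each E861A library (points), with the tissue mean and SD (bars, n = 3). The brain libraries lie between 6.96% and 8.64% and the liver libraries between 1.68% and 1.81%, at sites that were chosen for a level above 1% in at least 1 tissue.

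The sites of each comparison were admitted by their level in either tissue, and most passed through brain alone. Sites above 1% only in brain numbered 745 for spleen, 723 for BM, 746 for thymus, 669 for small intestine, 699 for heart, 544 for kidney and 524 for liver. Sites above 1% only in the other tissue numbered 24, 69, 33, 52, 58, 30 and 63 in the same order. Means over these sites are therefore a description that favours brain. At those with full coverage the brain mean was 23.2-fold that of spleen, 19.3-fold that of thymus, 17.9-fold that of BM, 14.1-fold that of small intestine, 11.5-fold that of heart, 7.92-fold that of kidney and 4.25-fold that of liver.

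Means over all sites read in the 6 libraries, whatever their level, do not carry this selection. Over 3408 such sites the brain libraries had 2.25%, 2.05% and 2.13% and the liver libraries 0.560%, 0.597% and 0.618%. Over 4309 sites the brain libraries had 2.26%, 2.04% and 2.14% and the spleen libraries 0.251%, 0.210% and 0.185%. The brain mean was 3.62-fold that of liver, 6.29-fold that of kidney, 6.36-fold that of heart, 7.15-fold that of BM, 7.30-fold that of small intestine, 8.81-fold that of thymus and 9.96-fold that of spleen. In each comparison all 3 brain libraries lay above all 3 of the other tissue. The exact two-sided permutation p was 0.1 in each, the smallest that 3 against 3 allows (adjusted over the 7 comparisons, also 0.1). The 7 comparisons share the same 3 brain libraries and are not independent of each other.

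In the main fit, between 20.2% and 34.3% of the tested sites were called higher in brain, and this share depended on the model. For spleen, with 34.3%, untransformed levels gave 17.8% and the fit over all 24 libraries 62.2%. The fit over all 24 libraries takes a common spread per site from all tissues. On the scale of the test, however, the median SD between libraries was 0.784 in brain and 0.118 (small intestine) to 0.177 (liver) in the other tissues. Its calls therefore cannot decide sites that the main fit left uncalled. Limma called 263 of 835 sites higher in brain than in BM (31.5%), 275 of 802 for spleen (34.3%), 270 of 809 for thymus (33.4%), 256 of 762 for small intestine (33.6%), 228 of 828 for heart (27.5%), 26.2% of 707 sites for kidney and 20.2% of 763 for liver. The sites called lay in 81 named genes for liver and in 96 to 120 for the other tissues, and their median difference was 13.6 to 15.3 percentage points. Lower calls were 1 for BM (0.120%), 1 for spleen (0.125%), 1 for thymus (0.124%), 3 for liver (0.393%), 1 for kidney (0.141%), 2 for heart (0.242%) and 0 for small intestine (0%), where limma gave 1 lower site at an unadjusted p under 0.05 and a quasi-binomial model none. These shares hold for sites admitted by level. With no limit on the level, limma called higher in brain 4.24% of 5235 covered sites for BM, 4.38% of 5278 for spleen, 4.57% of 5274 for thymus, 4.59% of 4729 for small intestine, 3.40% of 5211 for heart, 3.06% of 4440 for kidney and 2.08% of 4477 for liver. The number of higher calls fell by over 1.5 times without BM library 1 (to 23.2% of the sites then tested), spleen library 2 (23.8%), heart library 3 (18.9%), liver library 1, 2 or 3 (13.9%, 15.8% and 11.7%) or kidney library 1, 2 or 3 (17.0%, 18.5% and 18.2%).

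**Figure D3:**
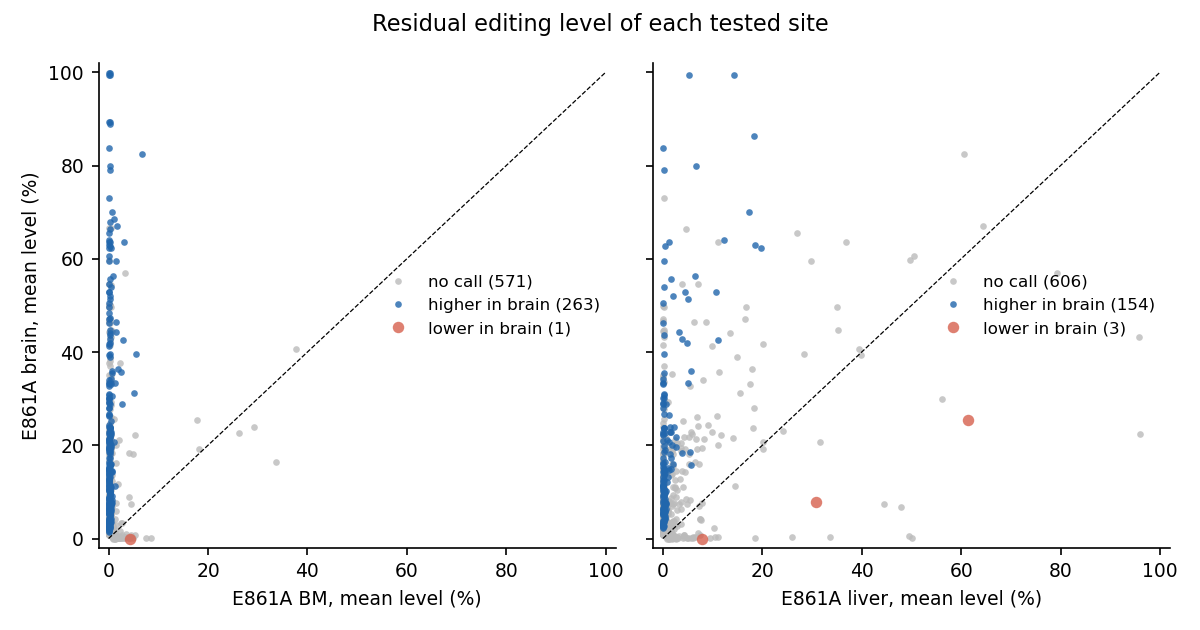
Mean E861A level of each tested site in brain (vertical, percent) against BM (left, horizontal, percent) and liver (right), coloured by limma call, with the line of equal levels dashed. Nearly all BM values lie near 0, with 263 sites called higher in brain and 1 lower, whereas some liver sites spread along the horizontal axis, with 20.2% of 763 sites higher in brain and 3 sites lower.

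Libraries of a tissue often differed at single sites, in brain and elsewhere. At sites above 1% in a tissue, the median SD between its 3 libraries was 4.16 percentage points in brain, 3.27 in liver, 3.02 in kidney and 1.55 to 2.77 in the other 5 tissues, in which levels were also lower. Of 740 brain sites with a pooled level above 1% and all 3 libraries covered, 114 (15.4%) had a library above 20% and another at or below 1%. In liver this held for 25 of 223 such sites (11.2%), in small intestine for 13 of 72 (18.1%), and in the other 5 tissues for 0% to 5.88%.

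Recoding sites were few, and in brain most of them were above 1% in every library. In brain, 35 of 42 nonsynonymous sites above 1% were so in every covered library (83.3%), against 211 of 529 sites in 3′ UTRs (39.9%), 34 of 106 in introns (32.1%), 22 of 77 intergenic (28.6%), 11 of 30 in ncRNAs (36.7%), 7 of 12 synonymous sites (58.3%) and 4 of 9 in 5′ UTRs (44.4%). The median pooled level of the nonsynonymous sites was 17.0%, and it was 6.96% in 3′ UTRs, so that the classes also differed in how far they lay above the limit. Outside brain, 7 of 12 nonsynonymous sites in liver, 5 of 8 in kidney, 2 of 5 in spleen, 2 of 7 in BM, 2 of 14 in heart, 1 of 6 in thymus and 1 of 10 in small intestine were above 1% in every covered library. By share of covered sites, however, nonsynonymous sites were not the most often edited class in brain, with 12.6% of 334 sites against 15.3% of 3455 in 3′ UTRs and 17.2% of 616 in introns.

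Most called sites were in 3′ UTRs, where 33.2% of 563 tested sites were higher in brain than in BM and 21.1% of 525 higher than in liver. Of nonsynonymous sites, 17 of 29 were higher than in BM, 18 of 26 than in spleen, 17 of 26 than in thymus, 18 of 29 than in small intestine, 12 of 26 than in kidney, 10 of 29 than in liver and 9 of 30 than in heart. As shares these were 58.6% for BM and 69.2% for spleen, against 31.5% and 34.3% over all tested sites, and 30.0% for heart, against 27.5%. Zfp397 had 6 coding sites, nonsynonymous or synonymous, above 1% in every covered brain library, at 2.36% to 4.17%. Over its tested sites of any class, 7 of 12 were higher than in spleen and 6 of 12 than in BM or thymus. The counts were 7 of 13 for small intestine, 2 of 12 for liver and kidney and 0 of 14 for heart. The part of this gene in the class shares was not counted. Nonsynonymous sites called lower in brain numbered 2 for liver, 1 for kidney and 1 for heart. Intronic sites ranged from 14.6% called higher against liver to 28.9% against small intestine, and intergenic sites from 20.5% to 24.4%. Of ncRNA sites, 1 of 28 was higher than in liver (20.2% of all tested sites) and 10 of 30 higher than in spleen (34.3%).

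**Figure D4:**
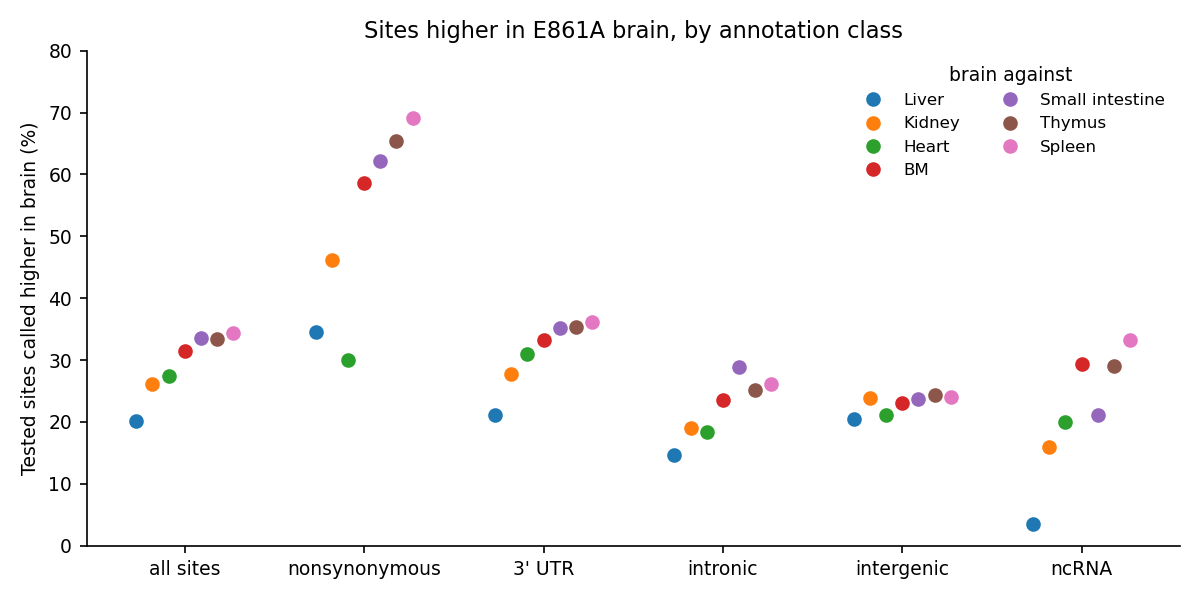
Percentage of tested sites called higher in E861A brain, by annotation class and by the tissue compared (points). Nonsynonymous sites range from 30.0% (heart) to 69.2% (spleen) and all sites together from 20.2% (liver) to 34.3% (spleen).

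Of 70 covered sites in transcripts of AMPA receptors, which carry fast excitatory transmission, 8 were above 1% in brain, beside 14.5% of all covered brain sites. The Gria2 Gln to Arg site, which controls calcium entry, was edited at 99.9% ± 0.0404 (SD, n = 3) of 4568 to 5990 reads in brain. Outside brain it had over 100 reads in only 1 kidney and 1 small intestine library, at 99.9% of 776 and 100% of 939 reads. The Arg to Gly site of Gria4 stood at 87.2%, 94.2% and 87.8% in brain.

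The Arg to Gly site of Gria3 stood at 62.0%, 66.6% and 72.6% in brain. In the covered liver libraries it was at 46.6% and 82.1%, a range that takes in all of the brain values, and limma did not separate them (adjusted p = 0.973). In the other 6 tissues no library was above 7.67%, and the site was called higher in brain than in each, for example than in spleen (67.1% ± 5.30 against 0.229% ± 0.0982, SD, n = 3 each, limma adjusted p = 8.68e-05). The call against small intestine (adjusted p = 0.0130, from 2.36e-05 to 0.0777 over all alternatives) was lost without brain library 2 (0.0550). Of the tested AMPA receptor sites 2 of 4 were higher than in BM (31.5% of all tested sites), 0 of 2 than in liver (20.2%) and 1 of 2 than in each other tissue (26.2% to 34.3%).

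Of the kainate receptors, Grik1 and the coding sites of Grik2 were covered in brain and hardly elsewhere. Grik1 Gln to Arg stood at 54.3% ± 6.9, and Grik2 had Tyr to Cys at 87.7% ± 7.2, Gln to Arg at 82.6% ± 5.0 and Ile to Val at 77.5% ± 5.8 (SD, n = 3 brain libraries). The only covered value outside brain at Grik2 Gln to Arg was 7.86% of 229 reads in 1 spleen library. The tested kainate sites were all in Grik2, and 2 of 7 were higher in brain than in spleen, thymus or kidney, 2 of 8 than in heart and 1 of 7 than in small intestine. All tested sites gave 34.3%, 33.4%, 26.2%, 27.5% and 33.6% in the same order, which are near or above these shares.

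Gabra3, a subunit of the inhibitory GABA(A) receptor, was edited at Ile to Met at 79.3%, 87.2% and 92.7% in brain. The liver libraries gave 13.8%, 15.1% and 26.0%, and the covered kidney libraries 6.8% and 11.4%. All brain values lay above all of these, and the site was called higher in brain than in liver (adjusted p = 0.00680) and kidney (adjusted p = 0.00531). In 1 spleen library it was at 24.4% of 328 reads. The serotonin receptor Htr2c had coding sites covered in brain alone. Of this gene a 3′ UTR site was tested in 5 comparisons, and it and the Gabra3 site were higher in brain wherever they were tested, at 1 of 1 site for liver, heart, BM, small intestine, thymus and spleen and 2 of 2 for kidney, where all tested sites gave 20.2% to 34.3%.

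Of 56 covered sites in transcripts of ion channels and channel regulators, 7 were above 1% in brain, beside 14.5% of all covered brain sites. Recoding sites of Tmem63b, Cacna1d and Kcna1 had levels in brain that were rarely seen elsewhere. Tmem63b Gln to Arg stood at 61.3%, 63.6% and 63.5% in brain, while no library of another tissue was above 0.789%. It was called higher in all 7 comparisons, with adjusted p from 8.68e-05 for spleen to 0.00125 for kidney. Cacna1d, a subunit of voltage-gated calcium channels, had Ile to Met at 45.0%, 39.5% and 34.0% and Tyr to Cys at 22.4% ± 2.0 in brain, and both were higher in all 7 comparisons. Kcna1 Ile to Val stood at 53.2%, 46.1% and 45.7% in brain and at no more than 0.516% elsewhere, except for 33.5% of 1370 reads in small intestine library 3. Limma did not call brain higher than small intestine (adjusted p = 0.0853, from 0.000860 to 0.392 over all alternatives). It did so without that library (0.001), and the quasi-binomial model also called the difference (0.0356). The fit over all 24 libraries, with its common spread, gave 0.000860. Of the tested channel sites, 5 of 8 were higher in brain than in BM, 5 of 6 than in spleen, thymus or heart, 5 of 7 than in kidney, 4 of 6 than in small intestine and 3 of 4 than in liver. Each is a larger share than that of all tested sites (20.2% to 34.3%). This is a description, since the list was chosen with earlier results known and most of its tested sites entered through brain.

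Cyfip2, a regulator of actin assembly, was edited at Lys to Glu at 78.7%, 79.7% and 81.0% of 5107 to 6775 reads in brain. The liver libraries had 8.5%, 2.0% and 9.3% and the kidney libraries 0.9%, 2.9% and 2.7%, and no library of the other 5 tissues was above 2.42%. The site was higher in brain in all 7 comparisons, with adjusted p of 0.00401 for liver and 0.00125 for kidney.

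Flna, a filamin that crosslinks actin, was edited at Gln to Arg in several tissues. Its level was highest in heart, at 59.1%, 50.1% and 76.9%, followed by liver at 33.9%, 33.1% and 28.2%, kidney at 30.9%, 28.7% and 32.3%, and brain at 22.1%, 33.0% and 7.0%. All heart values lay above all brain values without a call (adjusted p = 0.0579, from 0.000307 to 0.235 over all alternatives). A limit of 5% (0.0345), an offset of 0.05 (0.0432), untransformed levels (0.0458) and the quasi-binomial model (0.0298) each gave a call. So did the fit over all 24 libraries, with its common spread (0.000307). Liver, kidney and brain overlapped. BM, spleen and thymus had means of 1.06%, 3.31% and 1.14%, and brain was called higher than each (adjusted p = 0.0140, 0.0423 and 0.0120). Each of these calls was lost on untransformed levels (0.131, 0.163 and 0.122) and without some single library. Small intestine, at 2.94% and 0.589% in 2 covered libraries, was not called (0.0613). Among the tested sites of the list that held Nova1, Cyfip2, Flna, Cadps and Sh2d5, 4 of 7 were higher in brain than in BM, 5 of 7 than in spleen, 4 of 7 than in thymus, 3 of 7 than in kidney, 2 of 4 than in liver, 4 of 10 than in small intestine and 3 of 9 than in heart. All tested sites gave 31.5%, 34.3%, 33.4%, 26.2%, 20.2%, 33.6% and 27.5% in the same order.

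Sites in transcripts of Golgi transport were higher than brain in some tissues and lower in others. Cog3, a subunit of a Golgi tethering complex, had its Ile to Val site at 21.1%, 26.6% and 28.8% in brain, but at 62.8%, 60.8% and 60.4% in liver, 57.0%, 57.0% and 58.3% in kidney and 57.9%, 49.6% and 54.9% in heart. Each of these 3 tissues lay entirely above brain, with adjusted p of 0.0271, 0.0161 and 0.0351. BM, spleen and thymus stood at 17.7% ± 3.6, 21.2% ± 2.6 and 18.5% ± 4.7 (SD, n = 3 each), close to brain and not called, and the 2 covered small intestine libraries at 7.7% and 4.6%, below it (adjusted p = 0.0194). These calls did not hold without single libraries. Against liver the adjusted p rose to 0.0505 without brain library 3, 0.0536 without liver library 1 and 0.0564 without liver library 3, within a range of 3.17e-07 to 0.115 over all alternatives. Against kidney it was 0.0685, 0.1 and 0.0700 without kidney libraries 1, 2 and 3, within 1.07e-06 to 0.1. Against heart it was 0.0745 and 0.209 without brain libraries 1 and 2 and 0.141, 0.0865 and 0.122 without heart libraries 1, 2 and 3, within 6.10e-06 to 0.247, and against small intestine 0.0647 without brain library 2, within 1.12e-06 to 0.117. The differences against liver in the fits that lost the call were -35.1 to -37.5 percentage points, near the -35.8 points with all libraries.

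Copa, a coat protein of Golgi vesicles, had its Ile to Val site at 5.7%, 9.6% and 8.3% in brain and 32.7%, 28.6% and 30.7% in liver, where it was called lower in brain (adjusted p = 0.0195, from 0.00152 to 0.0886 over all alternatives). The call held without each single library and was lost with no limit on the level (0.0859) and with the replicate number as a block (0.0886). Heart was uneven, at 18.5%, 28.0% and 0.0% of over 1000 reads each, and kidney at 10.6%, 7.2% and 9.2% overlapped with brain. In BM, spleen, thymus and small intestine no library was above 1.69%, and all 4 were called lower than brain, for spleen (adjusted p = 0.0123, from 0.00601 to 0.0708) not without spleen library 2 (0.0511) or 3 (0.0519). On untransformed levels the calls against spleen (0.0705), BM (0.0667), thymus (0.0553) and small intestine (0.119) were all lost. The replicate block lost those against spleen (0.0708) and BM (0.0505). Of the tested Cog3 and Copa sites, 2 of 3 were lower in brain than in liver, 1 of 3 than in kidney and 1 of 4 than in heart, while 1 of 3 was higher than in BM, spleen or thymus and 2 of 3 than in small intestine. Of all tested sites, 0.393%, 0.141% and 0.242% were lower in brain than in liver, kidney and heart, and 31.5%, 34.3%, 33.4% and 33.6% were higher than in BM, spleen, thymus and small intestine.

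**Figure D5:**
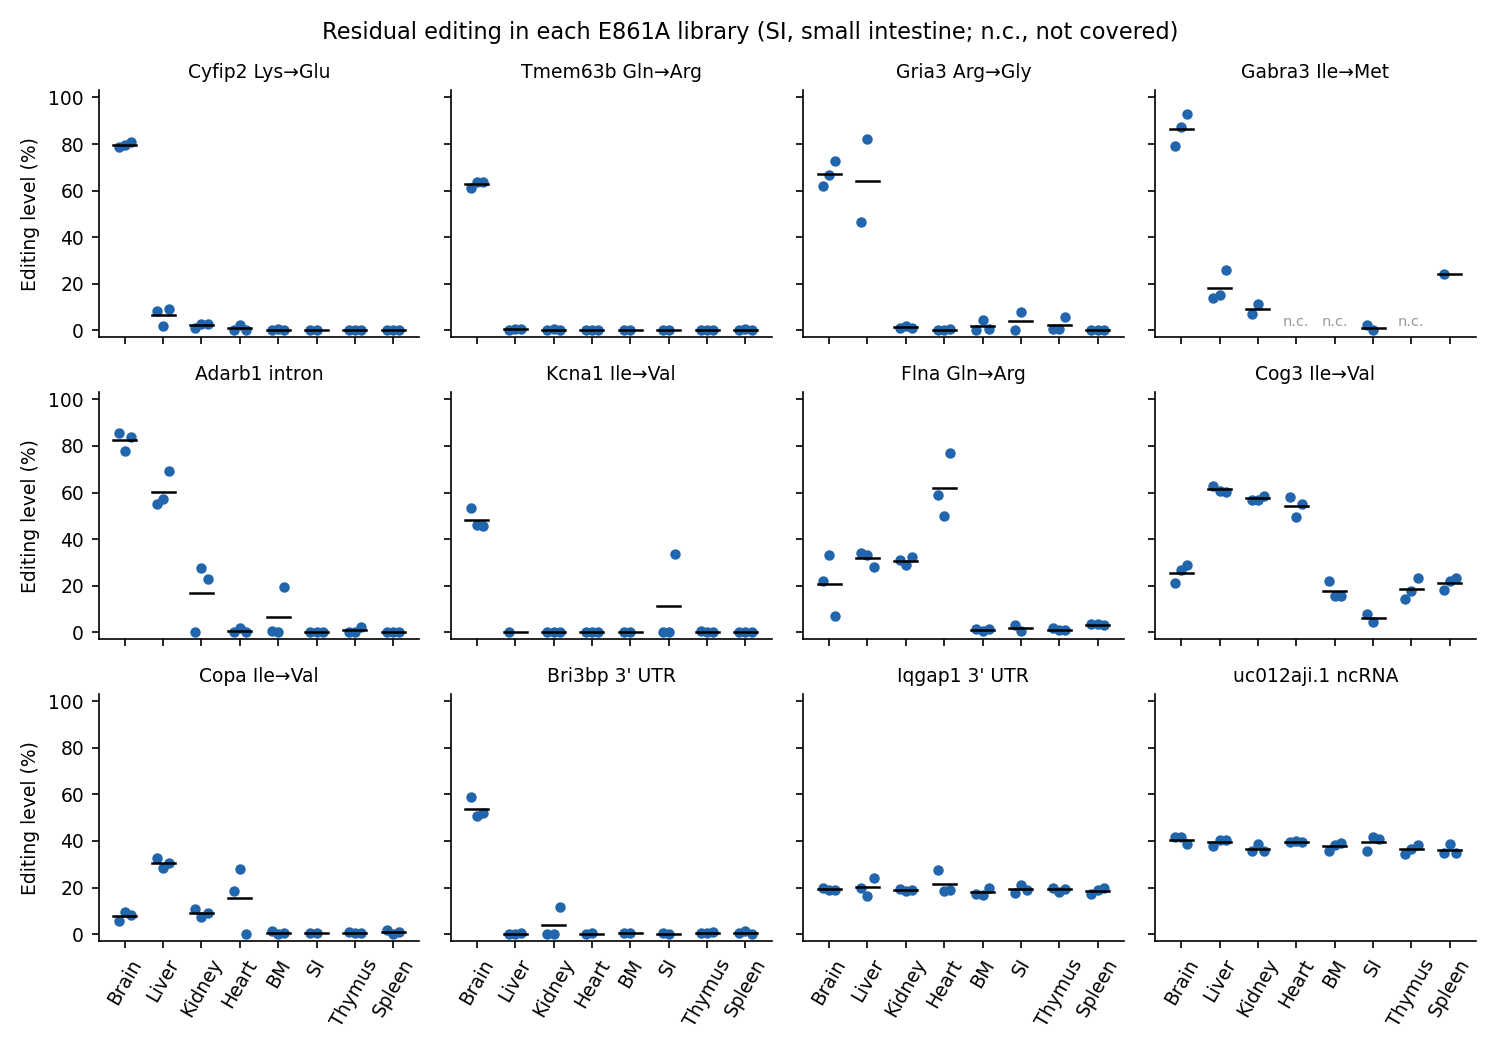
Editing level (vertical, percent) at 12 sites in every covered E861A library (points) with the mean (bars), by tissue. Cyfip2, Tmem63b and Bri3bp are high in brain, Cog3 and Copa in liver, Flna in heart, and Iqgap1 and uc012aji.1 are level across the tissues.

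The transcript of ADAR2 was itself a target. In an intron of Adarb1, where ADAR2 is known to edit its own pre-mRNA, 6 sites within a short stretch were above 1% in every brain library, with pooled levels from 19.4% to 82.4%. The highest stood at 85.6%, 77.8% and 83.8% in brain, 54.9%, 57.3% and 69.1% in liver, 0.0%, 27.4% and 23.0% in kidney and 0.6%, 0.0% and 19.4% in BM, and no library of the other 4 tissues was above 2.34%. Brain lay above all of these libraries, and the site was called higher in 6 comparisons and not against liver (adjusted p = 0.135, from 0.0269 to 0.314 over all alternatives). A limit of 5% (0.0470) and the quasi-binomial model (0.0269) gave a call against liver. Against kidney the call (adjusted p = 0.0392, from 0.000568 to 0.180 over all alternatives) was lost without any single brain library (0.0868, 0.0768 and 0.0838) and without kidney library 2 (0.0513) or 3 (0.0586). The second Adarb1 site shown was at 44.1% ± 5.0 in brain and 13.5% ± 13.8 in liver (SD, n = 3 each, limma adjusted p = 0.0822, from 0.0108 to 0.366). It was called without liver library 2 (0.0108) and, with its common spread, in the fit over all 24 libraries (0.0131). Over the editing enzyme list, with Adarb1 its only tested gene, 6 of 9 sites were higher in brain than in spleen, thymus or heart, 6 of 10 than in small intestine, 5 of 9 than in BM, 4 of 10 than in kidney and 1 of 9 than in liver. These shares lay above those of all tested sites in 6 comparisons and below the 20.2% for liver.

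The highest Adarb1 site thus had means of 82.4% ± 4.0 in brain, 60.5% ± 7.6 in liver and 16.8% ± 14.7 in kidney (SD, n = 3 each). More of the 10 neuronal transcripts were covered in kidney and thymus than in liver. In liver libraries 1 to 4 of them had a position over 100 reads, among them Gabra3 with 521 to 1739 reads, and the median over the 10 of the best-covered position was 0.5 to 7.50 reads. In kidney libraries 5 to 7 had one, with medians of 196 to 577 reads. Thymus libraries had 5 or 6, with medians of 484 to 734, and brain libraries all 10, with medians of 2454 to 3134. The part of single cell types in these levels was not tested.

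Several 3′ UTRs kept more than one edited site in brain. Bri3bp, a membrane protein gene, kept 6 of 56 covered sites above 1% in every covered brain library, from 11.3% to 53.8%, and the site shown stood at 58.9%, 50.7% and 52.0% in brain. Outside brain it was at or below 1.17% in every covered library but 1, kidney library 3 with 11.8%, and it was called higher in all 7 comparisons, against kidney (adjusted p = 0.0146, from 7.39e-06 to 0.0886) not without kidney library 1 (0.0527) or 2 (0.0503). Cds2, an enzyme of phospholipid synthesis, stood at 49.4%, 48.1% and 58.9% in brain, while 5.5% in liver library 1 and 7.6% in kidney library 2 were the highest values elsewhere. It too was called in all 7, against kidney (adjusted p = 0.00806) not with no limit on the level (0.0522). A site of Ncl, which encodes the nucleolar protein nucleolin, stood at 61.9%, 29.5% and 62.3% in brain and was called higher in all 7 comparisons, with adjusted p from 0.000554 for spleen to 0.0369 for liver. Its call against liver, where library 3 reached 14.6%, was lost without any 1 of 5 libraries (0.0907, 0.0511 and 0.1 without brain libraries 1, 2 and 3, 0.0994 and 0.0949 without liver libraries 1 and 2, within 1.84e-05 to 0.220), and that against kidney (0.0154, from 0.000249 to 0.0827) without kidney library 2 (0.0510).

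Trove2, which encodes the RNA-binding protein Ro60, stood at 54.4%, 68.2% and 55.8% in brain and at 18.9% and 40.8% in the covered liver libraries, all below brain but without a call (adjusted p = 0.184). Of the tested sites of the 3′ UTR list, 13 of 44 were higher in brain than in BM, 16 of 38 than in spleen, 15 of 38 than in thymus, 10 of 37 than in liver, 10 of 29 than in kidney, 14 of 36 than in small intestine and 14 of 38 than in heart. All tested sites gave 31.5%, 34.3%, 33.4%, 20.2%, 26.2%, 33.6% and 27.5% in the same order. The only tested gene of the list of widely expressed recoded genes was Blcap, with 2 sites and no call by limma in any comparison, and its Tyr to Cys site was at 21.8% and 0.1% in the 2 covered brain libraries.

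Over all 9 lists the median difference between brain and the other tissue was 2.61 to 4.31 percentage points, below the 4.23 to 5.69 points of all tested sites in the same comparisons. The number of lower calls among listed genes was 2 for liver and 1 each for kidney and heart, all in Cog3 or Copa.

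Some genes outside these lists had several higher calls in their 3′ UTRs, and those named here were picked for their number of calls after the values were seen. All tested sites gave 20.2% (liver) to 34.3% (spleen). Cdk7, a kinase of the transcription machinery, had 7 of 11 tested sites called against BM, spleen, thymus, small intestine and heart, 7 of 12 against kidney and 5 of 11 against liver. Rbm41 had 6 or 7 of its 9 or 10 sites called in every comparison, and all 4 tested sites of Echs1, an enzyme of fatty acid oxidation, were called in all 7. Dclre1c, a nuclease of DNA repair, had 6 of 16 sites called in 5 comparisons, but 1 of 12 against kidney and 1 of 21 against liver.

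Large called differences were found at the Gabra3 recoding site and also at sites outside coding sequence, the Adarb1 intron among them. A 3′ UTR site of 3830431G21Rik stood at 99.8% of 519 and 100% of 234 reads in brain libraries 2 and 3 and had no reads in library 1, against at most 0.202% in the 6 other tissues tested. A site in 4933407H18Rik was at 100% of 192 and 99.0% of 194 reads in 2 brain libraries and at 2.18% to 9.64% in liver. An intergenic site on chromosome 12 had 85.8%, 99.9% and 82.4% in brain and at most 0.245% in the other tissues tested, apart from 4.64% in kidney library 2. The ncRNA uc011ynq.1 stood at 55.1%, 99.9% and 96.5% in brain and at most 0.0487% elsewhere, with a call against liver (adjusted p = 0.0228, from 1.50e-06 to 0.143) that was lost without brain library 3 (0.0658). A 3′ UTR site of Gla, the gene of the lysosomal enzyme alpha-galactosidase A, stood at 66.7%, 70.4% and 99.9% in brain against at most 0.547% elsewhere. Its call against small intestine (adjusted p = 0.0201, from 5.83e-07 to 0.130) was lost without brain library 2 (0.0568). No limit on the level lost the calls against small intestine (0.130), liver (0.0699) and kidney (0.125). The only covered WT brain library gave 0.287% at the Gla site. In 2 covered WT brain libraries each, the chromosome 12 site had a mean of 82.7% ± 24.5 and uc011ynq.1 of 47.9% ± 33.1 (SD).

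The other called sites that were lower in brain had low levels. A 3′ UTR site of Rwdd2b stood at 12.4%, 5.1% and 6.0% in liver and 0.0% in all 3 brain libraries (adjusted p = 0.0112, from 2.19e-08 to 0.147). The call was lost on untransformed levels (0.147) and with the replicate block (0.0598). The intergenic site at position 39980697 of chromosome 17 was at 1.1%, 0.3% and 0.0% in brain, 4.5%, 8.7% and 5.8% in spleen, 2.6%, 4.4% and 9.4% in thymus and 6.2%, 8.5% and 4.8% in heart (adjusted p = 0.00995, 0.0375 and 0.0131). The calls were lost without spleen library 2 or 3 (highest adjusted p 0.0777), without brain library 2 or 3 or any thymus library (0.166) and without any heart library (0.0797), for spleen, thymus and heart in turn, within ranges over all alternatives of 0.000546 to 0.0777, 0.00184 to 0.166 and 0.000570 to 0.0882. WT means at this site were 52.4% ± 37.0 in brain, 23.0% ± 5.64 in spleen, 19.1% ± 10.7 in thymus and 23.7% ± 3.91 in heart (SD, n = 3 each). An intronic site of 2810422J05Rik was at 0.0% in 2 brain libraries and at 5.23% and 3.55% in BM libraries 1 and 3, with no reads in library 2 (adjusted p = 0.0447, from 0.00500 to 0.333). This call was lost, at 0.0867, in the fit without BM library 2, in which 752 rather than 835 sites were tested.

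Of 3517 sites covered in all 8 tissues, 5 were above 1% in all of them. The Iqgap1 site, in the 3′ UTR of a scaffold protein gene, stood at 19.2% ± 0.4 in brain and at means of 18.1% to 21.6% in the other tissues, and uc012aji.1 at 40.6% ± 1.8 in brain and 36.1% to 39.7% elsewhere (SD, n = 3). The Iqgap1 site lies in a run of adenosines. In WT tissues the means were 16.4% to 19.7% at the Iqgap1 site and 36.8% to 41.4% at the uc012aji.1 site. Whether the readings at the Iqgap1 and uc012aji.1 sites come from ADAR editing was not tested. The other 3 sites were Cog3 Ile to Val, the neighbouring synonymous Cog3 site, at 4.2% ± 2.2 in brain and 12.2% ± 4.1 in heart, and Flna Gln to Arg.

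WT libraries show whether the sites called higher in E861A brain were edited in the other tissue when ADAR1 could deaminate. Of the sites higher than in BM, 224 were covered in WT BM and 83 of them (37.1%) had a pooled WT level above 1%. Over all 224 the median WT BM level was 0.354%. The called sites were chosen for low levels in E861A BM and high ones in E861A brain, and the 83 also for their WT level, so the medians that follow are descriptions. At those 83 sites the median level was 7.77% in WT BM, 0.201% in E861A BM and 17.7% in E861A brain. For the other tissues, 22.8% (spleen) to 59.0% (kidney) of the sites higher in brain were above 1% in WT, with medians at these sites of 3.15% to 5.28% in the WT tissue, 0.117% to 0.487% in the E861A tissue and 14.7% to 19.9% in E861A brain. Of tested sites without a call, 121 of 504 (24.0%) were above 1% in WT BM, and 7.53% (spleen) to 44.1% (liver) in the other tissues. The difference between called and uncalled sites was not tested. The 121 sites had medians of 4.80% in WT BM and 0.208% in E861A BM.

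In brain, liver and kidney, a T was more frequent and a G less frequent before the adenosine at edited sites than at unedited sites. In the genome a T, a U in the RNA, preceded 37.4% of the brain sites with a pooled level above 1%, 37.0% of those in liver and 45.8% of those in kidney, against 17.1%, 18.8% and 18.0% of covered sites that were not edited there. A G preceded 9.57%, 12.0% and 11.3% of these sites and 24.9%, 23.7% and 23.9% of the unedited ones. In BM, spleen, thymus, small intestine and heart, sites chosen in the same way had a T before them in 14.5%, 23.4%, 12.7%, 20.2% and 29.3% and a G in 27.6%, 29.9%, 20.3%, 18.3% and 27.2%, beside 19.2% to 19.5% and 22.4% to 23.2% among unedited sites.

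At sites above 1% in every covered library, a T came first in 46.3% of 324 in brain, 51.5% of 68 in liver and 54.5% of 44 in kidney, and a G in 5.86%, 7.35% and 9.09%. The other tissues had 10 to 15 such sites each, with a T before 6 of 15 in heart, 3 of 14 in spleen, 2 of 13 in thymus, 1 of 12 in BM and 1 of 10 in small intestine. Sites edited in the WT libraries of those 5 tissues had a T before them in 32.8% to 41.6% and a G in 8.99% to 12.8%. These shares are descriptions, since neighbouring sites share amplicons.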

How the data were processed

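The 24 E861A libraries of a series of 48 mmPCR-seq libraries were compared. There were 3 per tissue, numbered as replicates in the labels and described as independent biological replicates in the study's methods. The submitters' processing notes name STAR, SAMtools and mm9, without versions. For each library the authors deposited, per position, the count of all reads (coverage), the count of edited reads and their ratio as a fraction rounded to 3 decimals. Levels were recomputed here from the counts as edited reads over coverage, in libraries with over 100 reads at the position. Tables of the whole series that repeat coverage and levels were not used here. No pair of libraries had identical counts.

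Levels were converted to log2((level + 0.01)/(1 - level + 0.01)) and tested in limma 3.58.1 (R 4.3.3; lmFit, eBayes with trend) on the 6 libraries of each comparison, two-sided, with Benjamini-Hochberg adjustment over the sites of that comparison. The script was tested on simulated data. P-values measure the spread between these libraries. Mean levels per library were compared by exact permutation, over all sites covered in the 6 libraries, a set chosen after seeing the data because the 1% limit favours brain.

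Sites were named by rule: per comparison the 3 called, non-overlapping sites with the largest difference each way, sites above 1% in all 8 tissues, the 2 highest sites per tissue and per annotation class, and sites of 9 gene lists. One gene is not reported here and was left out of its list, but its sites stayed in the fits. The members and lists were chosen with earlier results of these data known. Alternatives varied the coverage minimum, the 1% limit, the offset, the model, the replicate block and the libraries. Bases were read from NCBIM37 (mm9) for all 7262 covered positions, and all had A at the edited position. Gene names and annotation classes are those of the deposited files.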

Additional observations from a re-analysis of the deposited data

How the results depend on the processing

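All 7 mean differences kept their direction under every alternative tried. One of these, the mean over all covered sites, was chosen after seeing the data. The percentage of tested sites higher in brain depended on the model. One fit over all 24 libraries gave 53.2% (liver), 60.7% (kidney), 54.8% (heart), 55.7% (BM), 59.3% (small intestine), 60.7% (thymus) and 62.2% (spleen), and untransformed levels gave 5.90%, 8.49%, 9.06%, 15.1%, 15.7%, 16.3% and 17.8% in that order. For liver, no limit on the level gave 2.08% of 4477 sites and an offset of 0.05 gave 12.5%. Leaving out 1 library gave 11.7% to 26.9% (liver), 17.0% to 37.0% (kidney), 18.9% to 37.7% (heart), 23.2% to 42.6% (BM), 27.1% to 45.2% (small intestine), 26.3% to 45.4% (thymus) and 23.8% to 47.2% (spleen).

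The 9 lower calls became 4 with over 500 reads, 73 in the fit over all 24 libraries, 105 with no limit, and 6 to 11 without 1 library. The labels give replicate numbers only, and deviations of same-numbered brain and other libraries correlated between -0.10 and 0.07. Such correlations cannot decide whether same-numbered libraries came from the same mouse, since single sites varied widely between libraries. With the replicate number as a block, limma called 5.5% (liver), 13.4% (kidney) and 18.2% (heart) of sites higher, within 1.5 times of the reported number for the other 4 tissues, and 0 lower.

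With a limit of 5%, the edited shares were 8.46% (brain), 2.17% (liver), 1.18% (kidney), 0.428% (heart), 0.245% (BM), 0.334% (small intestine), 0.164% (thymus) and 0.135% (spleen), and over 500 reads gave 15.9% in brain. Without 1 library they ranged from 13.3% to 14.4% (brain), 4.48% to 5.15% (liver), 2.92% to 3.57% (kidney), 2.11% to 2.51% (heart), 1.95% to 2.36% (BM), 1.70% to 2.22% (small intestine), 1.18% to 1.48% (thymus) and 0.948% to 1.45% (spleen).

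Of 137 calls followed at 27 sites, 94 stayed past the threshold under every alternative in which the site could be tested. A further count gave 26 lost without some single library and 27 with the block. Sites that were not covered in every library were tested under fewer alternatives. Gabra3, for example, was tested under 13 alternatives against kidney and 17 against liver. A call at such a site was therefore challenged less often. Uncalled differences changed sign for Gria3 against liver (-0.0547 to 5.23 points without 1 library) and for an Rpa1 site against liver (-43.8 to 6.04) and kidney (-11 to 38.8, and -4.49 without kidney library 1). The causes were not tested. Recoding sites of Grik1, Grik2 and Htr2c had too few reads outside brain to be compared.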

Other observations

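Some sites edited in liver and kidney could not be compared with brain or overlapped with it. A 3′ UTR site of Agphd1 stood at 20.9%, 24.6% and 34.0% in E861A liver and 9.63%, 14.4% and 14.2% in kidney. Its only covered brain library gave 0.0%, so it entered no comparison. The 3′ UTR of Rpa1, a subunit of the single-stranded DNA-binding complex RPA, held 8 sites above 1% in every liver library, 6 in every kidney library and 5 in every brain library. One of them stood at 60.4%, 80.6% and 96.7% in liver and 16.5%, 59.7% and 63.1% in kidney, while the brain libraries gave 0.265%, 100% and 70.6%, so that the tissues overlapped.

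Some high levels appeared in single libraries. In BM a Tln2 site stood at 100% of 505 reads in library 3 and at 0.639% and 0.385% in the others. In small intestine another Rpa1 site stood at 0.0283%, 71.0% and 21.5%.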
